A study of Mus musculus with 2 samples.

Results

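Osteopontin and 6 genes of its neighbourhood in matrix adhesion were followed cell by cell in immune cells of mouse tumours under PD-1 blockade. The 7 genes were taken by symbol, each from 1 row of the 27998 genes in both count matrices: Spp1, Fn1, Tgfbi and Thbs1, whose products are deposited outside the cell, Plau, a secreted protease, and Plaur and Cd44, which are surface receptors. The study grew MC38-GFP tumours, a colon adenocarcinoma line marked with green fluorescent protein, under the skin of C57BL/6 mice from 50000 cells. All animals received anti-PD-1 antibody, which blocks an inhibitory receptor of T cells, at 100 ug on days 12, 15, 18 and 22, a dose described as sub-optimal. CD45+ cells were sorted from tumours called responders or non-responders, and 1 droplet library was made for each label. The labels used do not give the number of mice behind a library, there was no untreated group, and the 2 libraries differ in response, in tumour and in preparation together, which cannot be told apart. With 1 library in each group no test between the groups was possible, and every interval below is a 95% interval that covers counting error only.

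Osteopontin, fibronectin, the TGF-beta-induced protein and thrombospondin-1 are secreted proteins that cells bind through integrins and other receptors, CD36 and CD47 among those of thrombospondin. Urokinase, the product of Plau, turns plasminogen into plasmin, and it does so bound to its receptor, the product of Plaur, which also binds the matrix protein vitronectin. CD44 is a receptor for hyaluronan and has been described as a receptor for osteopontin. Macrophages and monocytes make several of these proteins in wounds and tumours, and Spp1 and Fn1 are widely used to describe states of tumour macrophages.

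The non-responder library held 2580 cell barcodes with 32032569 unique molecular identifiers (UMIs, counts of single captured RNA molecules), and the responder library 4425 barcodes with 45866561 UMIs. After removal of 4 barcodes under 500 genes and 61 with over 10% mitochondrial UMIs, 2565 and 4376 cells remained, with medians of 11752 and 10043 UMIs. The libraries shared 14 barcodes. Clustering, from which the 7 genes were left out as variable genes, gave 2162 non-responder and 4052 responder cells in clusters called macrophage-like, with median depths of 12210 and 10129 UMIs. One cluster, number 10, was called monocyte-like and held 192 and 57 cells, or 7.49% and 1.30% of a library. Cluster 9 was called macrophage-like, with the monocyte genes Ly6c2 and Plac8 among its leading genes, at 616.9 and 1076 CPM in 575 responder cells. Responder cells of cluster 10 had 1099 and 2489 CPM of them. The shares of cluster 10 are thus not shares of all cells with monocyte genes. T cell-like cells numbered 60 and 87, and 20 non-responder cells were NK cell-like. Most macrophage-like cells came from different clusters in the 2 libraries: clusters 0, 1, 2 and 11 held most of the non-responder cells and clusters 4, 5, 6, 7, 8, 9 and 13 those of the responder. Both libraries had 20 cells or more in clusters 1, 4, 7 and 11. Clusters 6 and 9 had a B cell or monocyte marker among their leading genes, and values without them are given where they differ.

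In the mouse genome build GRCm38, Spp1 lies on chromosome 5 from 104435118 to 104441050 on the plus strand, and the predicted gene Gm42793 overlaps it on the same strand. Fn1 lies on chromosome 1 from 71585520 to 71653200 on the minus strand. Tgfbi is on chromosome 13 from 56609523 to 56639562, Plau on chromosome 14 from 20836660 to 20843385 and Plaur on chromosome 7 from 24462484 to 24475968, all on the plus strand. Chromosome 2 carries Thbs1 from 118111876 to 118127133 on the plus strand and Cd44 from 102811141 to 102901665 on the minus strand. All 7 are protein-coding, and each value below counts all UMIs assigned to a gene, so that isoforms such as those of Cd44 or Fn1 were not separated.

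The bases before the start of 4 of the 7 genes were in the RefSeq promoter table of build GRCm38.p6 (Spp1, Tgfbi, Plaur and Cd44). Spp1 and Plaur are shown because their levels in macrophage-like cells differed most and least between the libraries. Each is the 250 bases before the start, 5′ to 3′ on the gene's strand, at chr5:104434861-104435110 for Spp1 and chr7:24462233-24462482 for Plaur, with matches to any of 4 motifs in capitals.
Spp1: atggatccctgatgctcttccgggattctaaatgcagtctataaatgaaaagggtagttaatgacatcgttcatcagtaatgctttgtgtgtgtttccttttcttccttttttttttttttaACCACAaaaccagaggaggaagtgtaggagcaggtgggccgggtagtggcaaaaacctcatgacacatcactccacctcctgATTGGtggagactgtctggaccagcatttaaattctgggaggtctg
Plaur: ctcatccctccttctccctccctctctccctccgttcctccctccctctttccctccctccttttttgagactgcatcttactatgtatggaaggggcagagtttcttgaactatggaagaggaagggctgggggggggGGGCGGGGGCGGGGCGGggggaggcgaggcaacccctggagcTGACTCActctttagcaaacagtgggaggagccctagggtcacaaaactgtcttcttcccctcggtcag
The motifs, searched on both strands, were TGANTCA (AP-1), ACCACA (RUNX), GGGCGG (GC box) and the CCAAT box, spelled by its name. Spp1 held 1 ACCACA, starting 128 bases before the start, and 1 CCAAT on the minus strand. Plaur held 1 TGANTCA, 69 bases before the start, and 3 GGGCGG, starting 111, 105 and 100 bases before it, the last 2 of which share 1 base. Among 32851 promoter windows of the same length, 6.75% held TGANTCA, 14.05% ACCACA, 32.7% GGGCGG and 33.8% CCAAT. These matches are letters in a window and were not measured as sites.

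In macrophage-like cells, 3 of the 7 genes (Spp1, Fn1 and Plau) were more than 2-fold lower in the responder library, none was more than 2-fold higher, and the other 4 lay within 1.47-fold. Of 10789 genes with at least 50 counts in this class, among them all 7, 4.12% were more than 2-fold lower and 3.69% more than 2-fold higher in the responder library, and the median log2 ratio was -0.10. Levels are given as counts per 1000000 UMIs of the class (CPM). The count of 3 fell to 2 when clusters 1, 4, 7 and 11 were weighted equally, because Plau then came to a log2 ratio of -0.92.

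Spp1 encodes osteopontin, a phosphorylated glycoprotein of bone that activated macrophages also secrete. Its macrophage-like level was 1235 CPM [1222 to 1248] in the non-responder and 71.2 CPM [68.7 to 73.8] in the responder library, 17.3-fold higher in the former [16.7 to 18.0]. That log2 ratio of -4.12 stood at rank 20 from the lowest of the 10789 genes. A UMI of Spp1 was found in 80.4% of non-responder and 20.7% of responder cells, and in 55.4% and 10.2% after every cell was thinned to 3000 UMIs, which left out 2 and 68 shallower cells. The same thinned shares in T cell-like cells, set beside them as a background although T cells can make osteopontin, were 26.7% and 5.56%, from cells with median depths of 4910 and 3685 UMIs, with 0 and 15 left out. The non-responder macrophage-like share lay above the interval of the T cell-like one [16.1 to 39.7], while the responder interval [1.53 to 13.6] held the macrophage-like 10.2%, so the responder shares could not be told apart at this depth. As a level, 71.2 CPM in responder macrophage-like cells lay above 27.0 CPM [12.9 to 49.6] in T cell-like cells, whose values are taken up again below.

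Fn1 encodes fibronectin, a large dimeric glycoprotein of plasma and matrix. Its level was 290.7 CPM [284.4 to 297.1] in the non-responder and 33.2 CPM [31.5 to 34.97] in the responder library, 8.76-fold apart [8.28 to 9.28], at rank 40 from the lowest. Thinned cells with a UMI made up 38.7% and 6.98%. Among T cell-like cells they were 3 of 60 and 0 of 72, the latter a share of up to 4.99%. With the 4 shared clusters weighted equally the log2 ratio was -1.95 in place of -3.13, so the lower responder level remained at a smaller size.

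Tgfbi encodes a secreted protein that binds collagens and integrins and was named for its induction by TGF-beta. It was found in 92.6% of non-responder and 96.0% of responder thinned macrophage-like cells, and in 10.0% and 23.6% of T cell-like cells. Its level was 1802 CPM [1787 to 1818] against 1619 CPM [1607 to 1632], a log2 ratio of -0.15 [-0.17 to -0.14]. The gene that was detected in almost every macrophage-like cell thus differed by 1.11-fold between the libraries. The log2 ratio ran from -0.51, with the shared clusters weighted equally, to -0.03 with scaling by the trimmed mean of M values (TMM), and was -0.21 without clusters 6 and 9.

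Thbs1 encodes thrombospondin-1, a trimeric protein of platelets and matrix that can activate latent TGF-beta. It was the only one of the 7 with a higher level in responder macrophage-like cells, at 24.2 CPM [22.7 to 25.7] against 16.5 CPM [15.0 to 18.1], a log2 ratio of 0.55 [0.39 to 0.71]. The log2 ratio was 0.35 without clusters 6 and 9, the latter of which held the highest responder level of the macrophage-like clusters at 61.1 CPM, and its sign turned, to -0.27, when the monocyte-like cluster was counted in. Thinned shares were 4.68% in the non-responder and 6.22% in the responder library.

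Plau, the urokinase gene, was sparse in both libraries, with 468 counts or 17.0 CPM [15.5 to 18.6] in the non-responder and 105 counts or 2.47 CPM [2.02 to 2.99] in the responder library. The 6.86-fold difference [5.54 to 8.56] stood at rank 52 from the lowest. Thinned cells with a UMI made up 5.88% and 0.678%, and no thinned T cell-like cell held one.

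Plaur, which encodes the urokinase receptor, was at 127.0 CPM [122.9 to 131.3] in the non-responder and 122.0 CPM [118.7 to 125.4] in the responder library. The log2 ratio of -0.06 had an interval that included 0 [-0.12 to 0.004], and over all alternatives it ran from -0.36, without clusters 6 and 9, to 0.29, with the shared clusters weighted equally, so it had no stable sign. Cd44 was at 89.8 CPM [86.3 to 93.5] and 81.5 CPM [78.8 to 84.3], a log2 ratio of -0.14 that ran from -0.24 to 0.03. The protease of the urokinase pair therefore differed between the libraries by more than its receptor, whose interval reached no lower than -0.12 on the log2 scale.

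**Figure D1:**
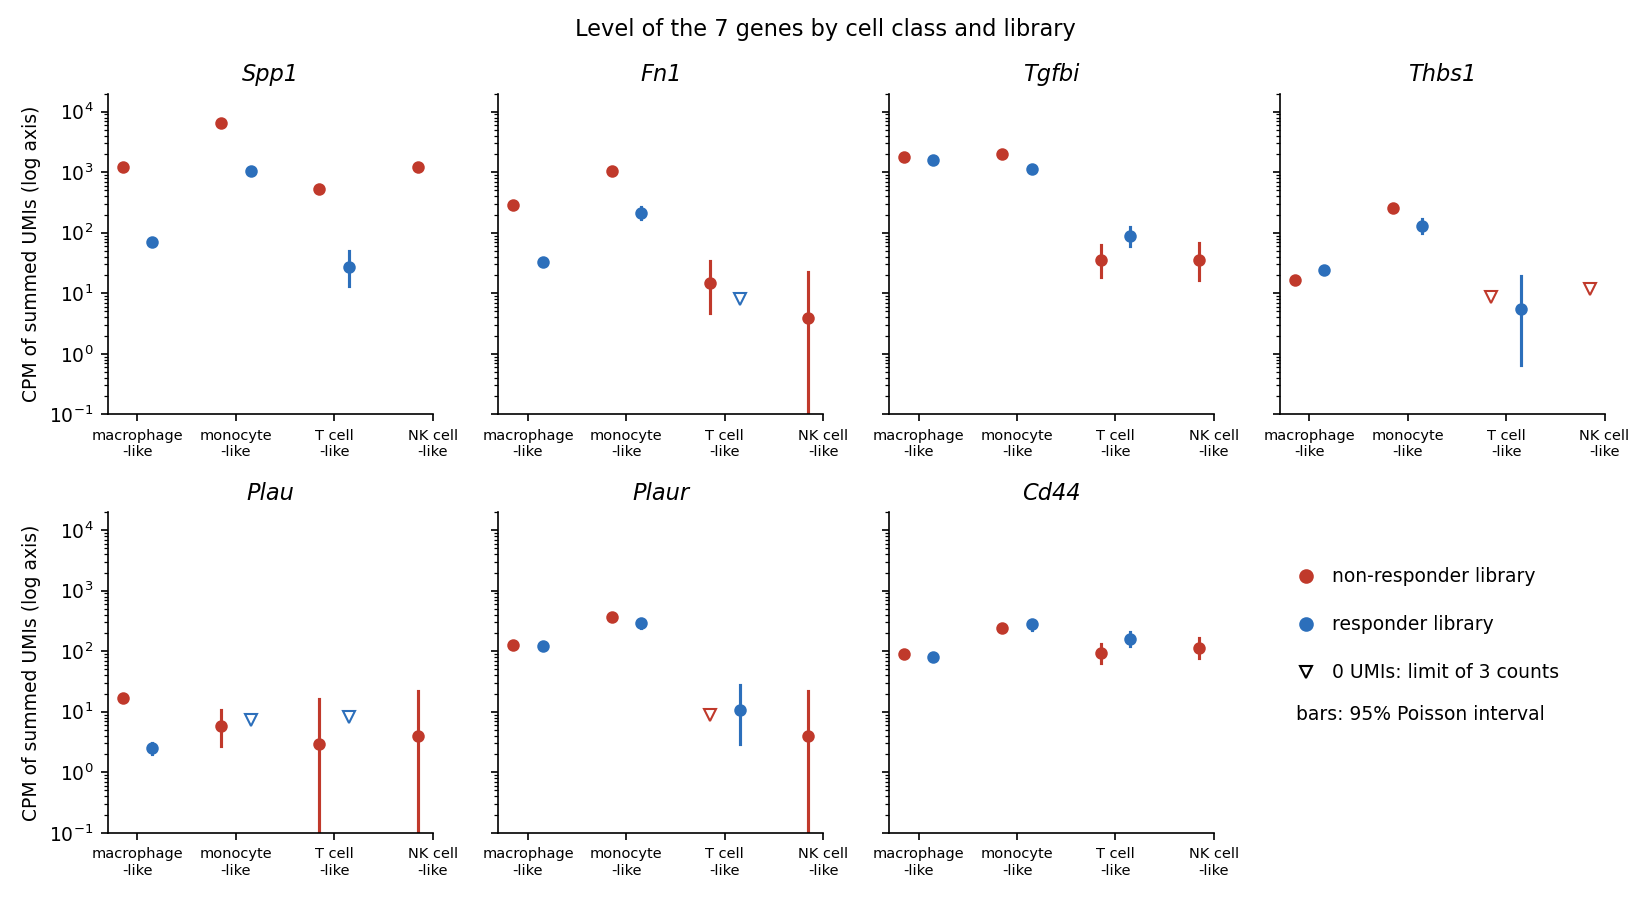
Level of each gene in CPM (log axis) in macrophage-like, monocyte-like, T cell-like and NK cell-like cells, red for the non-responder and blue for the responder library, with 95% Poisson intervals; open triangles mark 0 UMIs at the limit of 3 counts. Spp1 ran from 1235 to 71.2 CPM between the libraries in macrophage-like cells, while Tgfbi (1802 and 1619) and Plaur (127.0 and 122.0) lay close together.

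The monocyte-like cluster was led by Ccl6, Chil3, Cd24a, Plac8, F10, Ly6c2, Ccl9 and Arg1 against all other cells. Spp1 and Thbs1 were also among its 10 leading genes, although neither had placed the cells. The cluster had 13 of 14 macrophage markers and 9 of 12 monocyte markers detected, so its name does not mean that macrophage genes were absent. It held the highest Spp1, Fn1, Thbs1 and Cd44 of the myeloid clusters in both libraries, and the highest Plaur in the non-responder library. For Spp1 in the responder library that place rested on 3 of 57 cells: without them cluster 10 was at 112.9 CPM, below cluster 9 at 213.0 CPM. In the responder library Plaur stood at 288.8 CPM there and at 294.5 CPM in cluster 9, with overlapping intervals. Plau showed the opposite placement: its highest level in both libraries was in cluster 1, at 31.8 CPM [26.9 to 37.4] and 23.5 CPM [8.61 to 51.1]. Cluster 10 held only 10 Plau counts in the non-responder and 0 in the responder library, which allows up to 9.03 CPM.

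Between the libraries, the monocyte-like cells had lower levels of Spp1, Fn1, Tgfbi and Thbs1 in the responder library, by 1.78-fold or more. Spp1 was at 6621 CPM [6500 to 6743] in the non-responder and 1031 CPM [934.4 to 1134] in the responder library, Fn1 at 1067 and 213.0 CPM, Tgfbi at 1998 and 1124 CPM, and Thbs1 at 252.6 and 129.7 CPM. The log2 ratios were -2.68, -2.33, -0.83 and -0.96, so that 2 of the 6 genes with counts in both libraries passed 2-fold lower and none passed 2-fold higher, against 5.92% and 5.14% of 3718 genes with at least 50 counts in this cluster. Without the 3 highest cells of each library for the gene, Tgfbi and Thbs1 also came past 2-fold lower, at log2 ratios of -1.08 and -1.11. That trim takes a larger part of the responder cells, and the share of all genes past 2-fold under it was not counted. Plaur had a log2 ratio of -0.37 [-0.66 to -0.08] and Cd44 one of 0.22 [-0.09 to 0.52]. Thbs1 thus had opposite signs in the 2 classes, higher in the responder library in macrophage-like cells and lower in monocyte-like cells.

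A few cells carried much of these levels. In the responder library 3 of the 57 monocyte-like cells held 89.8% of the Spp1 UMIs, and without them the level was 112.9 CPM [81.7 to 152.1] in place of 1031. In the non-responder library the 3 highest of 192 cells held 31.7%, and the level without them was 4607 CPM. With 3 cells left out of each library, the log2 ratio of Spp1 was -5.35 in monocyte-like cells and -4.18 in macrophage-like cells, where the 3 highest cells held 10.4% (responder) and 6.50% (non-responder). Leaving out 3 cells from each library also moved monocyte-like Thbs1 to 176.7 and 82.0 CPM, a log2 ratio of -1.11. Tgfbi moved to 1920 and 908.4 CPM, a log2 ratio of -1.08. In this class 3 cells are a larger part of 57 than of 192, so the trim itself tends to lower the responder level more. These monocyte-like ratios are therefore not a like-for-like check of those from all cells.

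The 8 neutrophil markers summed to 1456 CPM in non-responder monocyte-like cells and to 49.0 CPM in responder ones. In the non-responder library 15 cells with 10 or more UMIs of these markers held 94.1% of them, and no responder cell reached that number. Those 15 cells were at 11827 CPM of Spp1 and at 176.4 CPM of Fn1. Without them the log2 ratios were -2.59 for Spp1, -2.42 for Fn1 and -0.91 for Thbs1, close to the values with them.

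The lower Spp1 and Fn1 of the responder library was found in each cluster that both libraries filled. For Spp1 the log2 ratios were -4.73 in cluster 1, led by Mmp12 and Hmox1, -4.02 in the dividing cluster 4, -2.65 in cluster 7, led by Cox4i2 and Arg1, and -2.99 in the interferon-gene cluster 11. For Fn1 they were -2.09, -2.59, -1.35 and -1.87 in the same order. Both genes were thus past 2-fold in all 4, where 12.0%, 4.30%, 2.92% and 5.53% of the genes with at least 50 counts were more than 2-fold lower. Over 6 macrophage-like clusters of at least 20 cells the non-responder level of Spp1 ran from 668.9 to 2601 CPM, and over 9 such clusters the responder level ran from 24.8 to 213.0 CPM, so the ranges did not overlap. The ranges of Fn1 did not overlap either, at 144.7 to 386.2 CPM and 7.21 to 100.8 CPM. Of the non-responder clusters left out for size, cluster 8 (17 cells) was at 76.0 CPM of Fn1 and cluster 6 (12 cells) had no count, so for Fn1 the separation holds only over the larger clusters. These ranges describe clusters of 2 libraries, which are not replicates. The share of all genes with ranges that stay apart was not counted, so the gap is not read as particular to these genes.

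Plaur and Thbs1 gave mixed signs over the shared clusters. Plaur had log2 ratios of -0.41, 0.39, 0.42 and 1.03 in clusters 1, 4, 7 and 11, and its levels over all macrophage-like clusters overlapped, from 57.1 to 186.6 CPM and from 67.1 to 294.5 CPM. Thbs1 had -0.13 and -0.64 in clusters 1 and 4, with intervals that included 0, and 1.19 and 1.36 in clusters 7 and 11. Plau was lower in the responder library in all 4, with log2 ratios of -0.44, -2.33, -1.998 and -1.03, from as few as 3 counts in a library, and only the interval in cluster 4 excluded 0. Tgfbi was lower in the responder library in clusters 4, 7 and 11, by up to 0.81 on the log2 scale, and at 0.03 in cluster 1.

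**Figure D2:**
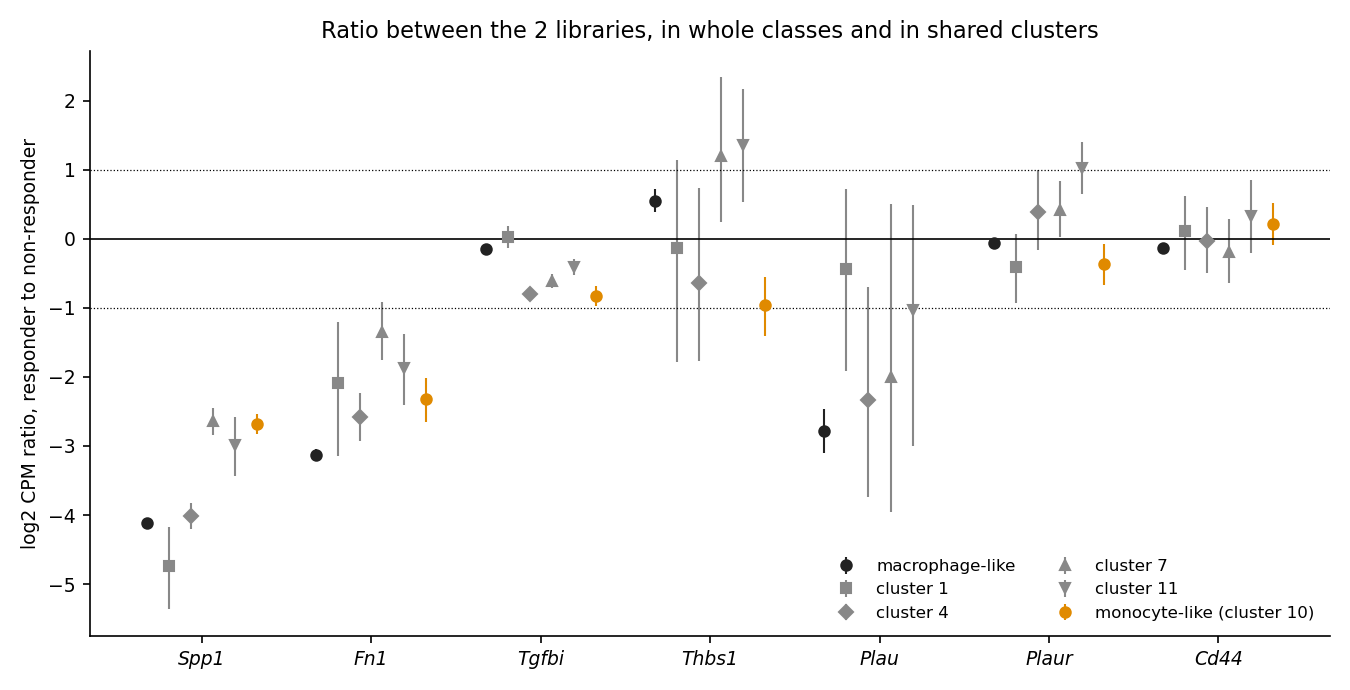
Log2 ratio of the level in the responder to that in the non-responder library for each gene in all macrophage-like cells (black), in clusters 1, 4, 7 and 11 (grey) and in monocyte-like cells (orange), with 95% counting intervals and dotted lines at 2-fold. Spp1 and Fn1 lay below the lower line in every set, from -4.73 to -2.65 and from -3.13 to -1.35, and Plaur and Thbs1 lay on both sides of 0. Plau has no point in monocyte-like cells, where the responder count was 0.

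The 7 genes were spread over single cells in different ways, compared here at 3000 UMIs a cell. By the ratio of variance to mean, Spp1 was the most uneven in the non-responder macrophage-like cells: its median was 1 UMI, 44.6% of 2160 cells had none, 10.2% had 10 or more, and the highest cell had 226. The 10% of cells with most Spp1 held 64.2% of its UMIs, and the variance was 25.6 times the mean. The share held by the highest 10% was 100% for Thbs1 and Plau, which had a UMI in fewer cells than that. Tgfbi, with a median of 5 UMIs and a maximum of 37, had a variance of 3.38 times the mean, and its highest 10% of cells held 26.7%. A gene that is read in most cells and one that is concentrated in a few were thus both present among these secreted proteins.

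In the responder library 89.8% of 3984 macrophage-like cells had no Spp1 UMI, 10 cells had 10 or more, and the maximum was 40. Tgfbi kept a median of 4 UMIs and a maximum of 23 there. Fn1 reached 26 UMIs in a non-responder and 7 in a responder cell, with 2.73 and 1.83 as the ratio of variance to mean. Plaur and Cd44 were thinly spread, with ratios of 1.45 and 1.16 in the non-responder and 1.42 and 1.03 in the responder library, and few cells above 4 UMIs.

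Among non-responder monocyte-like cells, 30.7% had 10 or more Spp1 UMIs, the median was 2 and the maximum 448, while 33.3% had none. The responder cluster had 2 of 54 thinned cells with 10 or more and 87.0% with none. Thbs1 was likewise uneven in the non-responder cluster, where 23.4% of cells held a UMI, the maximum was 23 and the highest 10% of cells held 78.9% of the UMIs.

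**Figure D3:**
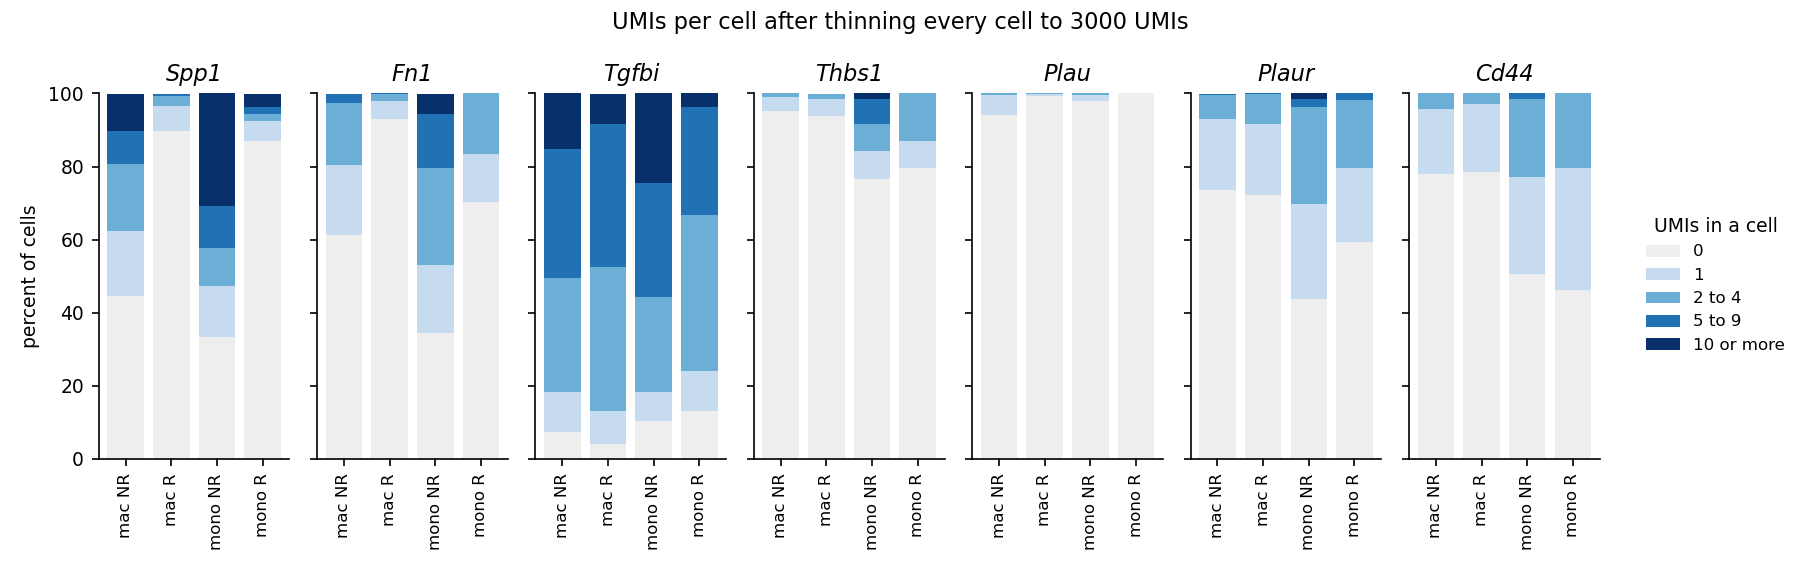
Percent of cells by the number of UMIs of each gene after every cell was thinned to 3000 UMIs, for macrophage-like (mac) and monocyte-like (mono) cells of the non-responder (NR) and responder (R) library. Cells with 10 or more Spp1 UMIs made up 10.2% of mac NR, 0.251% of mac R, 30.7% of mono NR and 3.70% of mono R, and Tgfbi was at 1 UMI or more in 87.0% to 96.0% of the cells of all 4 columns.

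For co-detection, the share of cells with UMIs of both genes was set beside the product of the 2 single shares, for all 21 pairs. Spp1 and Fn1 were found together in 24.5% of non-responder macrophage-like cells against a product of 21.4%, and in 1.83% of responder cells against 0.715%, ratios of 1.15 and 2.56. This ratio has less room to rise where a gene is found in many cells, so it is not like for like between the libraries. The odds ratios were 1.72 in the non-responder and 3.58 in the responder library, and the correlations of log counts were 0.19 and 0.18. In the responder library Fn1 was found in 17.9% of cells with Spp1 and in 5.73% of cells without it. In the non-responder library the same shares were 44.3% and 31.6%.

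The pairs of Plaur with Spp1, Fn1 and Thbs1 were above their products in the responder library. Tgfbi with Plaur was at its product, and Plau with Plaur, in 5 cells, at 0.66 times it. Thbs1 with Plaur was at 1.68, Fn1 with Plaur at 1.61, Spp1 with Thbs1 at 2.01 and Spp1 with Plaur at 1.41 times the product. In the non-responder library the same pairs were at 1.31, 0.98, 0.89 and 1.08. The counting interval of each joint share held the product. That interval treats the product as fixed, although both come from the same cells, so it cannot decide whether a pair is linked. Plaur was found there in 34.7% of cells with Thbs1 and 26.1% without it, and in 26.0% and 26.8% for Fn1. For Spp1, Plaur was found in 28.7% of cells with it and 23.8% without it, and Thbs1 in 4.18% and 5.29%. Cd44 and Plau were near their products with most partners or rested on few cells, such as 1 responder cell with both Spp1 and Plau. Tgfbi had ratios from 0.94 to 1.04 with every partner in both libraries, but for a gene found in most cells this ratio cannot rise far above 1. Its odds ratios lay on both sides of 1. In the non-responder and responder library they were 0.64 and 0.60 with Spp1, and 1.36 and 1.67 with Fn1. They were 1.55 and 0.63 with Thbs1, 0.58 and 1.02 with Plaur, and 1.23 and 1.19 with Cd44. With Plau the odds ratio was 0.52 in the non-responder library, and none could be formed in the responder library.

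Of the 21 pairs, 14 lay above the product in the non-responder and 17 in the responder library, with median ratios of 1.06 and 1.06. With cells thinned to 5000 UMIs the counts were 15 and 14. The share of pairs of other genes above their product was not counted, so these counts are not read as particular to the 7 genes. No allowance was made here for the different clusters that make up the class. At least 5 of the 7 genes were found together in 3.10% of non-responder and 0.577% of responder macrophage-like cells, and in 22.9% and 5.56% of monocyte-like cells. No cell held all 7.

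**Figure D4:**
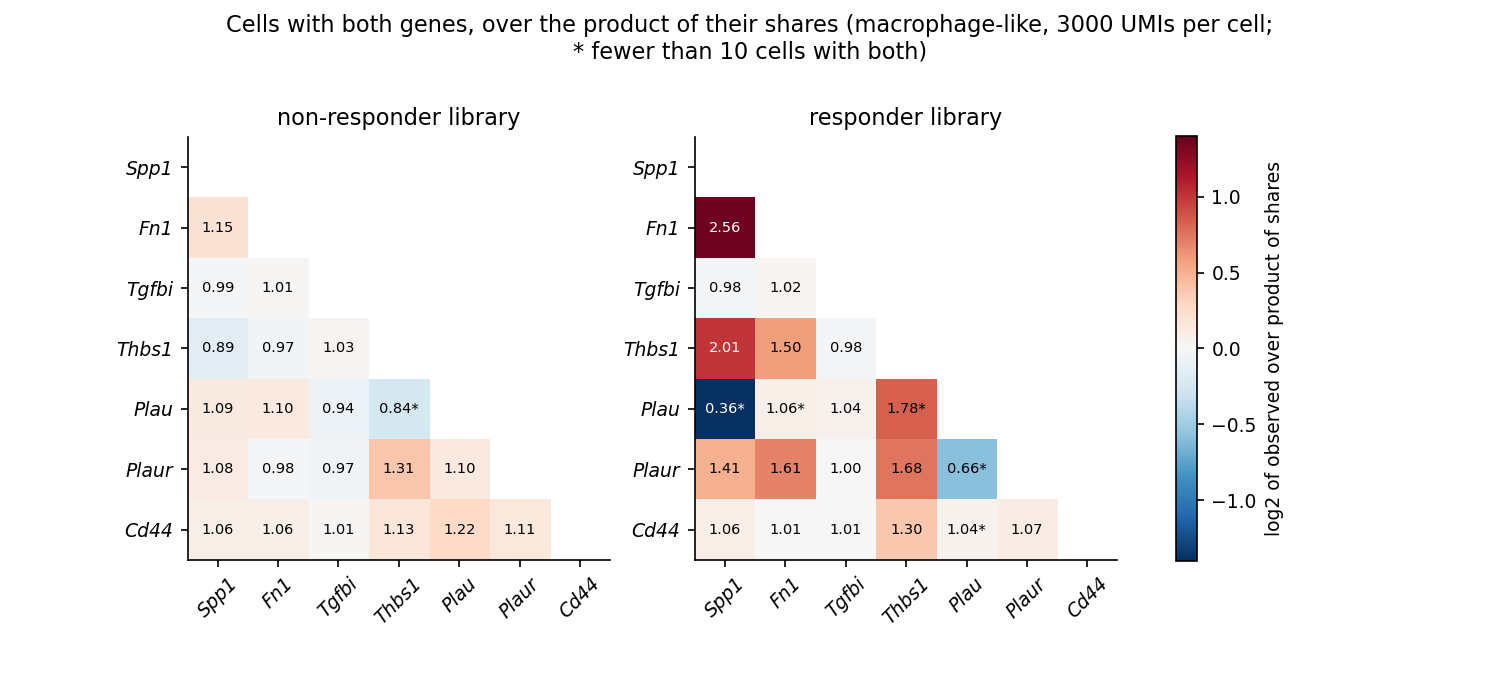
Share of macrophage-like cells with UMIs of both genes divided by the product of the single shares, as numbers and as colour on a log2 scale, for 2160 non-responder and 3984 responder cells thinned to 3000 UMIs; an asterisk marks pairs found in fewer than 10 cells. Spp1 with Fn1 was at 1.15 and 2.56, a ratio with less room to rise in the non-responder library, where both genes were found in more cells. The Tgfbi pairs, whose ratio cannot rise far above 1, lay between 0.94 and 1.04.

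Cells with more Spp1 differed in the other genes too. In the non-responder library the 964 cells without Spp1 UMI had 201.2 CPM of Fn1, those with 1 to 2 had 242.7, those with 3 to 9 had 331.6, and the 220 cells with 10 or more had 519.7. Arg1, the arginase gene of alternatively activated macrophages, was at 349.2 CPM in the first and 1739 CPM in the last of these bins, and C1qa, a complement gene of mature macrophages, stood at 7486 in the first and 5224 CPM in the last. Tgfbi was at 1885 CPM in cells without Spp1 and at 1324 in the highest bin. Spp1-rich cells of this library thus had more Fn1 and Arg1 and less Tgfbi and C1qa RNA. The bins were not split by cluster. Of the 6 non-responder macrophage-like clusters of at least 20 cells, cluster 1 was highest in Spp1, at 2601 CPM, and lowest in Tgfbi, at 1294 CPM. Its Fn1 was only 166.1 CPM, in a range of 144.7 to 386.2 CPM over these clusters, so Fn1 did not follow Spp1 there.

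In the responder library, where 59 cells had 3 to 9 Spp1 UMIs and 3576 had none, Fn1 was at 118.6 against 26.3 CPM, Thbs1 at 84.7 against 24.3 CPM and Plaur at 299.4 against 122.9 CPM. Tgfbi was at 1780 against 1608 CPM, while a Tgfbi UMI was found in 93.2% against 96.2% of the cells, so no order of Tgfbi is read from these bins. Ly6c2, a monocyte gene, was at 418.1 against 122.8 CPM in the same bins.

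The level of each gene was also followed along C1q, the sum of C1qa, C1qb and C1qc UMIs, which is low in monocytes and high in mature macrophages. Macrophage-like and monocyte-like cells of a library were divided into 5 groups of equal size by that sum. The cuts were made within each library, so the groups were not matched in C1q between libraries. The lowest group held 0 to 38 C1q UMIs in the non-responder and 0 to 57 in the responder library. The highest held 82 to 157 and 94 to 227. From the lowest to the highest group, Spp1 went from 3817 to 583.0 CPM in the non-responder and from 246.7 to 34.7 CPM in the responder library, and Fn1 from 450.1 to 251.1 and from 90.3 to 16.9 CPM. Plaur went from 251.9 to 112.8 and from 244.6 to 101.2 CPM, nearly the same values in both libraries. Most of the change in Plaur and Thbs1 lay between the lowest group and the next.

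Tgfbi varied least along C1q, from 1894 to 1605 CPM in the non-responder and from 1936 to 1353 CPM in the responder library. Cd44 went from 182.6 to 73.8 and from 106.4 to 69.4 CPM. Thbs1 was at 136.6 CPM in the lowest non-responder group and between 12.1 and 30.5 in the others, and at 52.8 against 21.5 to 25.2 CPM in the responder library. The monocyte-like cluster made up 33.3% of the lowest group in the non-responder and 4.83% in the responder library, a difference in make-up whose part in these levels was not tested. These are shares of that cluster alone, not of all cells with monocyte genes. In the lowest group Ly6c2 was at 440.2 CPM in the non-responder and 547.4 CPM in the responder library. Plac8 was at 1281 and 1019 CPM there, and the monocyte gene Ccr2 at 240.6 and 99.4 CPM.

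**Figure D5:**
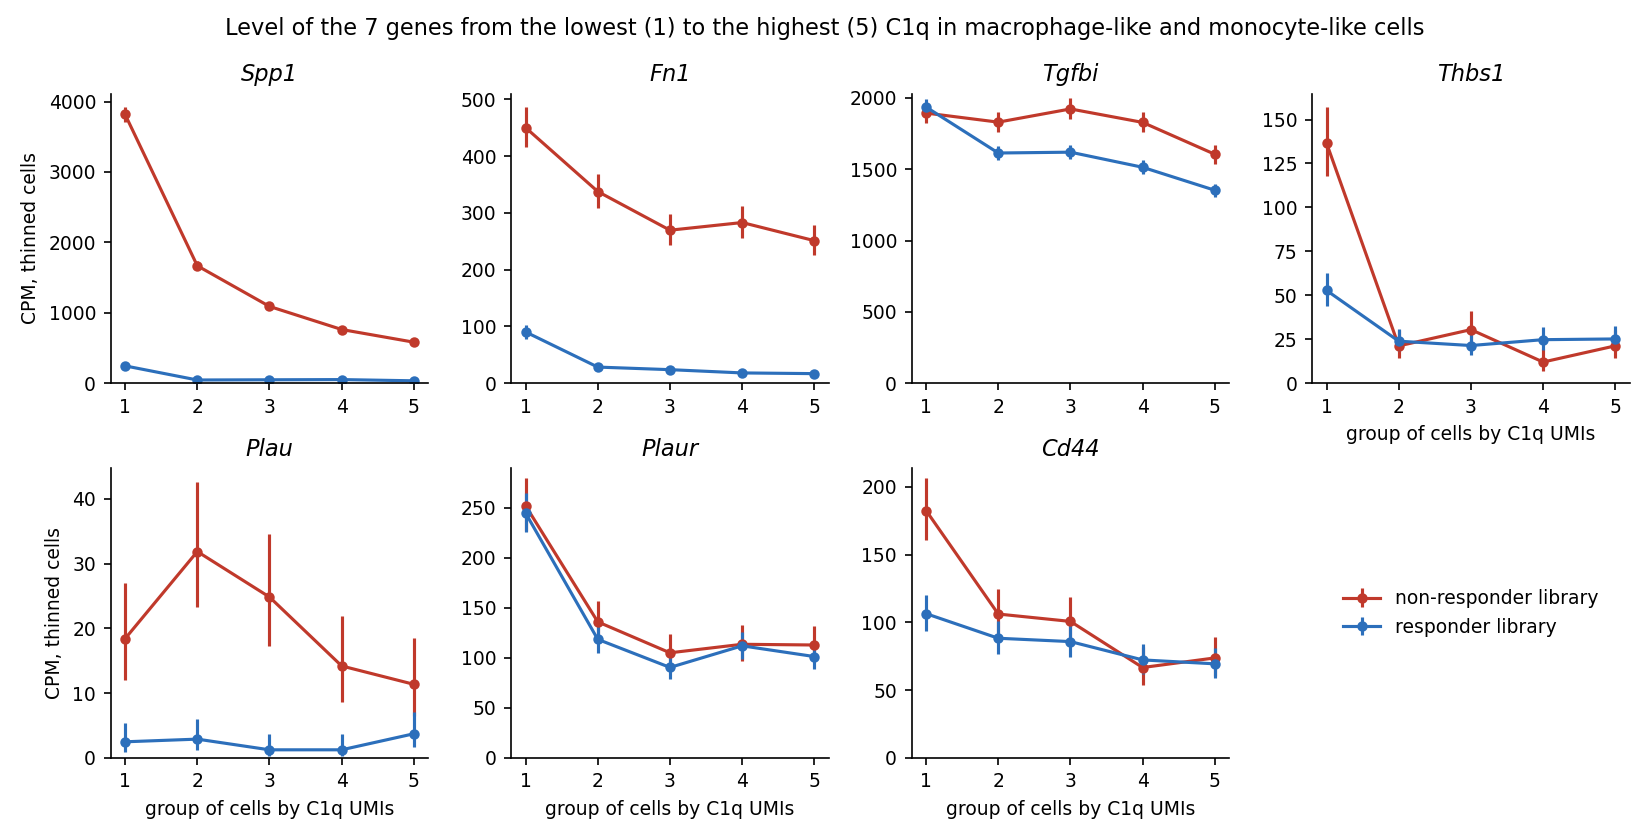
Level in CPM of thinned cells (with 95% Poisson intervals) in 5 equal groups of macrophage-like and monocyte-like cells by C1q UMIs, from lowest (1) to highest (5), red for the non-responder and blue for the responder library. The groups were cut within each library and are not matched in C1q between libraries. Plaur lay on nearly the same values in both libraries (251.9 and 244.6 in the first group). Spp1 was lower in the responder library in all 5.

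Outside the myeloid cells, Cd44 was the one of the 7 whose level in T cell-like cells reached that of macrophage-like cells. It was at 94.2 CPM [64.4 to 133.0] in the non-responder and 159.2 CPM [121.2 to 205.4] in the responder library, or 104.8% and 195.3% of the macrophage-like level, and it is a known surface protein of activated T cells. In the 20 NK cell-like cells it was at 115.1 CPM. Droplets with both T cell and macrophage markers (31 and 101) were kept out of these classes. Tgfbi in T cell-like cells was at 35.3 CPM (1.96% of the macrophage-like level) and 89.0 CPM (5.50%), close to the medians of 14 macrophage markers there, 2.42% and 5.99%. The T cell-like Tgfbi counts were therefore no higher than those of genes that T cells should lack.

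Spp1 did not follow those markers. In non-responder T cell-like cells it was at 529.8 CPM [455.2 to 613.1], 42.9% of the macrophage-like level [36.9 to 49.6], while the highest of the 14 markers was at 6.63%. Of the 60 cells 25 had a UMI, and 3 cells with a maximum of 90 UMIs held 78.3% of the counts. Without these 3 cells the level was 121.5 CPM, or 9.84% of the macrophage-like level. In the responder library 8 of 87 cells had a UMI, none more than 2, at a level of 27.0 CPM [12.9 to 49.6].

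In the 20 NK cell-like cells of the non-responder library, which were led by granzyme genes and had a median depth of 13252 UMIs, Spp1 was at 1198 CPM [1067 to 1341], 97.0% of the macrophage-like level. The macrophage markers there had a median of 1.12% and a highest value of 5.06%, and Tgfbi was at 1.98%. Of these cells 15 had a Spp1 UMI and 7 had 10 or more, up to 148. Without the 3 highest cells the level was 389.3 CPM, or 31.5%. Fn1, Plau and Plaur had 1 count each in these cells and Thbs1 had none, which allows up to 14.6 CPM. The 7 cells with 10 or more Spp1 UMIs had a median of 5 C1q UMIs.

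An unnamed cluster of 20 non-responder and 22 responder cells was led by Serpinh1, Dcn and Col3a1, genes of matrix-producing cells, and by Rhox5. It was nearly without Ptprc, the gene of the CD45 antigen used for the sort (3.75 and 9.06 CPM, against 128.8 and 179.1 in macrophage-like cells). Its cells had Spp1 at 722.5 and 308.1 CPM and Fn1 at 725.0 and 302.9 CPM, more than 2-fold apart in the direction seen in macrophage-like cells, with log2 ratios of -1.23 and -1.26, as 4.61% of the genes measured in this cluster were past 2-fold lower. Cd44 was at 96.2 and 123.0 CPM there, and Tgfbi only at 45 and 69.9 CPM. In macrophage-like cells the 8 fibroblast markers summed to 3.26 and 3.39 CPM, near 0 in both libraries.

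By correlation over thinned macrophage-like cells, taken as the lower of the 2 libraries' values, the genes most like Spp1 were Fn1 (0.19 in the non-responder and 0.18 in the responder library), Cd9 (0.25 and 0.18) and S100a6 (0.20 and 0.17). Those most like Fn1 were S100a6, Spp1 and Arg1, and those most like Plaur were Lgals3, Arg1 and Srgn, at 0.17 to 0.22. Tgfbi was most like Tubb5, Ccr2 and Il1b, and Thbs1 most like Fth1, Il1b and Cd14. Cd44, nearest to Cd14, S100a6 and Vim, and Plau had no gene above 0.07 in both libraries. These are correlations of sparse counts over 2160 and 3984 cells that share a library and its depth, all weak, and they are given as a description.

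Genes whose products act with these proteins were counted in macrophage-like cells in 5 lists, beside the median log2 ratio of -0.10 over all genes, 39.9% of which had a higher level in the responder library. Of 12 receptors (integrins, Cd36, Cd47 and Lrp1), 11 had at least 50 counts, 5 with a higher and 6 with a lower responder level, at a median of -0.16. Cd36, a scavenger and thrombospondin receptor, was the only gene of the 5 lists past 2-fold, at 4.02 CPM in the responder and 22.8 CPM in the non-responder library, a log2 ratio of -2.50. The integrin gene Itga4 and the thrombospondin receptor Cd47 were higher in the responder library, with log2 ratios of 0.74 and 0.63, and the endocytic receptor Lrp1 was at -0.74.

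In the plasminogen list 6 of 11 genes were measured, 1 higher and 5 lower, against 39.9% higher over all genes, at a median of -0.49. The plasminogen-binding Anxa2 was at -0.78, the protease Ctsb at -0.71 and S100a10, the partner of Anxa2, at -0.28. In the hyaluronan list 7 of 16 were measured and all 7 were lower in the responder library, at a median of -0.41, among them the hyaluronidases Hyal2 (-0.94) and Hyal1 (-0.57), the hyaluronan receptor Hmmr (-0.41) and Rdx (-0.47), which links CD44 to actin. None of these passed 2-fold.

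Of 20 other matrix genes only 6 were measured, 3 in each direction, at a median of -0.02. Lamc1, a laminin chain, was at -0.90 and the galectin gene Lgals3 at -0.79, while Col3a1, from 67 and 26 counts, was at 0.74 and Spon1 at 0.49. In the TGF-beta list 9 of 12 were measured, 3 higher and 6 lower, at a median of -0.17, and the largest differences were -0.41 for Smad7, -0.24 for Smad2, -0.23 for Smad3 and -0.22 for Tgfbr2.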

How the data were processed

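Cell barcodes and UMI counts per gene were deposited by the authors as 10x Genomics matrices, made with Cell Ranger 1.1.0 on build mm10 (GRCm38), per the submitters' processing notes. How barcodes were called as cells, and with which gene annotation, is not given in the sources used here. Raw counts were summed per class and library (CPM). Intervals were exact Poisson or Clopper-Pearson, and conditional binomial for ratios, and cover counting error only. For shares, distributions and co-detection each cell was thinned to 3000 UMIs (seed 7), and shallower cells were left out. Cells were clustered with scanpy 1.11.5 (2000 variable genes without the 7, 30 components, resolution 1.0) and named from marker lists by counts of detected markers. Doublets were not called: clusters with T cell and macrophage markers were kept apart, and cells with a T cell receptor UMI were left out as an alternative. The method was tested on simulated data. For the ratios and their intervals these were Poisson counts, without the unevenness between cells seen for Spp1. That simulation therefore cannot show how the intervals hold for such a gene. The 7 genes, the lists and the markers were chosen with earlier results of these data known. From each partner list up to 4 genes with the largest absolute log2 ratio were named, and for each of the 7 the 3 most correlated genes. Some genes that these rules select are not reported here. TMM factors came from edgeR 4.0.16. Counts called past 2-fold needed at least 50 counts in both libraries together.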

Additional observations from a re-analysis of the deposited data

Results flagged for a closer look

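In 4 cases the ratio between the libraries had opposite signs in 2 cell classes, with counting intervals that excluded 0 on both sides. With 1 library per group these differences were not tested. The log2 ratio of Tgfbi, responder to non-responder, was 1.33 [0.34 to 2.42] in T cell-like cells, from 33 and 12 counts, against -0.15 in macrophage-like cells, and the same 1.33 stood against -0.83 in monocyte-like cells. Macrophage markers in T cell-like cells were at a median of 5.99% (responder) and 2.42% (non-responder) of the macrophage-like level, and their part in this difference was not tested. Thbs1 was at 0.55 [0.39 to 0.71] in macrophage-like cells against -0.96 [-1.401 to -0.55] in monocyte-like cells. Its macrophage-like value was 0.35 without clusters 6 and 9 and -0.27 with the monocyte-like cluster counted in, so its sign depended on how the class was drawn. Cd44 was at 0.76 [0.11 to 1.43] in T cell-like cells, from 59 and 32 counts, against -0.14 in macrophage-like cells. The latter was -0.02 with TMM scaling and 0.03 with the shared clusters weighted equally, so its sign was not stable.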

How the results depend on the processing

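The log2 ratio of Spp1 in macrophage-like cells, -4.12, kept its sign and stayed past 2-fold under all 15 alternatives. It was -3.997 with TMM scaling, -4.05 after thinning, -4.18 with the 7 genes allowed among the variable genes, -4.06 at resolution 2.0, -3.78 with the shared clusters weighted equally, -4.33 without clusters 6 and 9, -4.27 with the monocyte-like cluster counted in and -4.51 without the hundredth of cells highest in the gene. That of Fn1, -3.13, was -3.01 with TMM scaling, -3.01 as a mean over cells, -2.998 after thinning, -1.95 with the shared clusters weighted equally, -2.90 without dividing clusters, -3.37 without clusters 6 and 9, -3.27 with the monocyte-like cluster and -3.34 without the highest hundredth. The number of genes past 2-fold was 2 or 3 lower and 0 higher throughout. TMM moved all log2 ratios by 0.12. With genes of at least 1 count the partner lists gained calls past 2-fold, such as 4 lower in the other matrix genes against 0. Leaving out clusters 6 and 9, shared barcodes, the highest cells or cells with neutrophil markers, and counting the monocyte-like cluster in, were chosen after seeing the data.

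No paired analysis was possible because each group had 1 library. With 57 monocyte-like, 60 and 87 T cell-like and 20 NK cell-like cells, single cells moved the levels of Spp1 there, and genes such as Plau were at or near the limit of 3 counts.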
